A study of Drosophila melanogaster with 4 samples.

Results

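The telomere-facing ends described here are the outermost 1 Mb of the assembled X, 2L, 3L and 3R sequences of Drosophila melanogaster, in FlyBase r5 coordinates. On X, 2L and 3L this is base 1 to base 1000000, and on 3R it is base 26905054 to base 27905053. A region enriched for the histone mark H3K9acS10P belonged to an end when its midpoint lay in that stretch. By this rule 603 of the 15374 regions in the series-level list were members: 106 on X, 181 on 2L, 158 on 3L and 158 on 3R. The rest of the same 4 arms held 11147 regions. The rule used position only, so coverage, width, score and replicate support were all free to vary.

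The material was chromatin from wild type embryos of the Oregon-R strain (Oregon-R-modENCODE), aged 14 to 16 h, and the labels name no other allele and no treatment. There were 2 ChIP samples made with 1 lot of an H3K9acS10P antibody, and 2 input samples, which have no region list. Whole embryos are of mixed cell types, so a mark in few cells and a weak mark in many cells cannot be told apart. Nothing in the labels ties the ChIP replicates to separate embryo collections, so their spread may be technical. The replicate lists were of unequal size, 4619 regions in replicate 1 and 10280 in replicate 2, and the depth of the libraries is unknown because the lists hold no read counts. With 2 replicates a two-sided exact sign test cannot give a p under 0.5, so the comparisons below are descriptions and carry no test.

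H3K9acS10P is histone H3 with an acetylated lysine next to a phosphorylated serine in its tail. Acetylation of that lysine is a mark of active promoters, and phosphorylation of the serine is known from mitotic chromosomes and from transcribed interphase chromatin. Drosophila has no telomerase. Its telomeres are arrays of the retrotransposons HeT-A, TART and TAHRE, followed inwards by telomere-associated satellite repeats that can silence genes inserted near them, and then by ordinary gene-bearing chromatin. The sources used here do not say how reads from such repeats were treated, and the ends below are the ends of the assembled sequence, which need not be the physical chromosome ends.

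For orientation, the outermost protein-coding genes in RefSeq's Release 6 gene order were looked up by name only. On 2L they begin with l(2)gl, a cell-polarity tumour suppressor, and Ir21a, a receptor used in cool sensing. On 3L the third is Lsp1gamma, a larval serum protein, and on 3R mod and krz, an arrestin, follow Map205, a microtubule-binding protein. G9a, a histone methyltransferase acting on the same H3 lysine, lies among the outermost genes of X. The lists are on r5 and the gene table on Release 6, so no region was assigned to a gene and no base sequence is shown.

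The ends were more densely covered than the rest of their arms in the series-level list, but not evenly. High coverage was not particular to the outermost 1 Mb. The adjoining stretch from 1 to 2 Mb, counted here in the rest, had 42.9% of its bases in regions over the 4 arms. Together the 4 ends had 40.3% of their bases in regions, against 29.0% for the rest of the arms, a difference of 11.3 percentage points. In replicate 1 the shares were 11.7% and 8.48%, and in replicate 2 they were 28.7% and 21.5%. The replicates thus disagreed about the level and gave similar ratios of end to rest, 1.38 in replicate 1 and 1.33 in replicate 2, or 1.36 ± 0.0380 (SD, n = 2). The excess itself was 5.18 ± 2.72 percentage points (SD, n = 2). Without the end of 2L the series-level difference was 8.37 points, and without the end of X it was 14.2 points.

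The end of 2L stood highest against its own arm in the series-level list and in replicate 2, and the end of 3L did in replicate 1. In the series-level list 46.1% of it was covered, in replicate 1 12.9% and in replicate 2 33.6%, against 25.7%, 7.47% and 19.0% for the rest of 2L. The ratio of end to rest was 1.73 in replicate 1 and 1.77 in replicate 2, so the replicates gave nearly the same relative excess. Among the 23 full windows of 1 Mb on 2L, counted from the end, the outermost had a series-level rank of 1, and ranked 1 in replicate 1 and 2 in replicate 2. The median of the other windows of 2L was 25.2% in the series-level list.

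The end of 3L was covered to 43.9% by series-level regions, to 14.4% by replicate 1 and to 29.9% by replicate 2. The rest of 3L had 27.9%, 7.62% and 20.4%. Replicate 1 gave the larger ratio of end to rest, 1.89 against 1.47 in replicate 2. Of the 24 windows of 3L the outermost had a series-level rank of 2, and ranked 1 in replicate 1 and 4 in replicate 2. The window next to it, from 1 to 2 Mb, was the most covered of 3L in the series-level list, at 52.4%.

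On 3R the replicates differed in direction. Series-level regions covered 39.8% of the end, those of replicate 1 8.70% and those of replicate 2 28.3%, and the rest of 3R had 32.9%, 9.17% and 24.4%. The difference was 3.89 percentage points in replicate 2 and -0.471 points in replicate 1, so an excess on 3R was not shared by the replicates. Of 27 windows the outermost had a series-level rank of 5, and ranked 13 in replicate 1 and 8 in replicate 2.

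The end of X differed least from its arm in the series-level list and changed direction with its length. Series-level regions covered 31.5% of it, those of replicate 1 10.9% and those of replicate 2 22.8%, against 28.7%, 9.60% and 21.9% for the rest of X. The differences were 2.79, 1.33 and 0.905 percentage points. When only the outermost 0.5 Mb was counted, X lay 6.94 points below the rest of its arm (a difference of -6.94), whereas the outermost 2 Mb lay 15.4 points above. The outermost window ranked 9 of 22 in the series-level list, and the next one, at 54.1%, was the most covered of X.

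**Figure D1:**
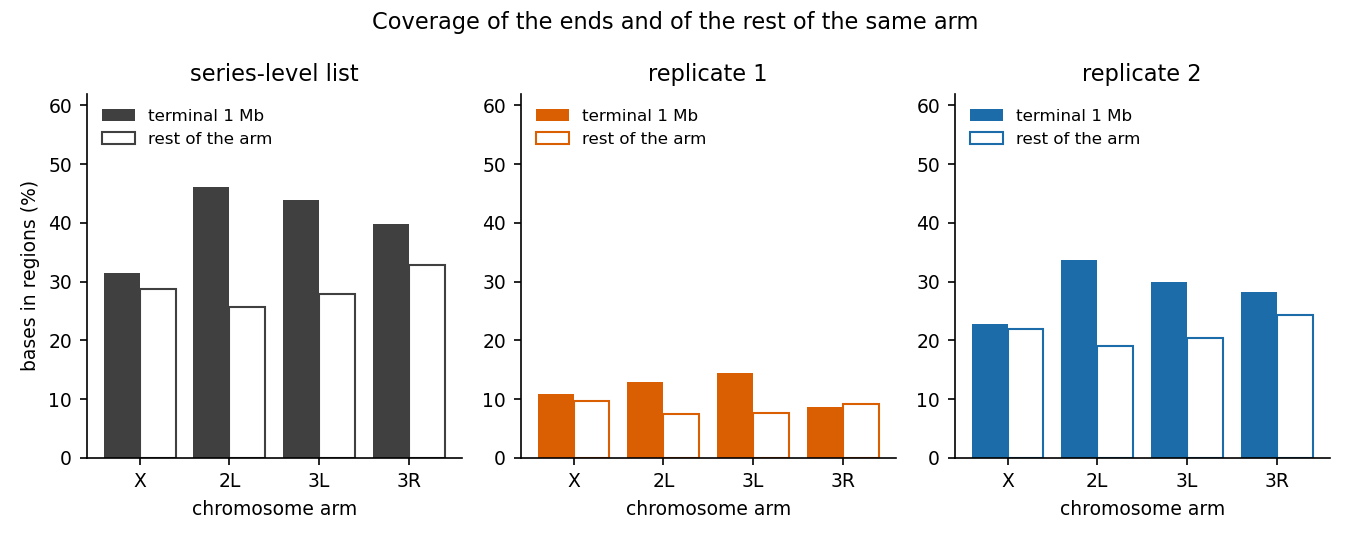
Bars give the percentage of bases in enriched regions in the terminal 1 Mb (filled) and in the rest of the same arm (open), for each arm and each deposited list; there is 1 value per bar and no error bar. The filled bar is higher for X, 2L and 3L in all 3 lists, and for 3R in the series-level list and replicate 2 but not in replicate 1.

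The outermost 100 kb was less covered than the remaining 900 kb in the series-level list at all 4 ends. Over the 4 ends together 8.79% of the outermost 100 kb lay in regions, against 43.8% of the remaining 900 kb. This stretch held 19 of the 603 members. The pooled share was almost equal in the replicates, 5.29% in replicate 1 and 5.39% in replicate 2, a mean of 5.34% ± 0.0716 (SD, n = 2). Single ends did not show this agreement, because differences in opposite directions offset each other in the pool. Replicate 1 was higher on 2L, and replicate 2 was higher on X and 3R. The SD over the replicates was 4.54 points on 2L, 3.46 on 3R and 1.37 on X. The remaining 900 kb had 12.4% in replicate 1 and 31.2% in replicate 2, so the step inwards was shallower in replicate 1.

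The 4 tips were not alike within that stretch. On 3L the outermost 100 kb held no region in any of the 3 lists. On X series-level regions covered 4.64% of it, replicate 1 covered 0% and replicate 2 covered 1.94%. On 3R the shares were 10.7%, 5.61% and 10.5% in the same order, and on 2L they were 19.8%, 15.6% and 9.13%. The tip of 2L was the only one of 40 bins of 100 kb over the 4 ends in which replicate 1 covered more bases than replicate 2. In replicate 1 the tip of 2L was not below the remaining 900 kb of that end, which had 12.6%, whereas in replicate 2 the remaining 900 kb had 36.3%.

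Set against all 100 kb windows of its own arm, the outermost window was low on X, 3L and 3R in the series-level list. On X 21 of 224 windows had the same or lower coverage in the series-level list, on 3L 3 of 245 and on 3R 19 of 279. In the replicate lists the tip of 3R stood nearer the middle, with 109 of 279 windows at or below it in replicate 1 and 66 in replicate 2. On 2L it was 93 of 230 series-level windows, also nearer the middle of the arm, and in replicate 1 196 of the 230 windows of 2L were at or below the tip. A window at 0 was common in replicate 1, with 39 on X, 44 on 2L, 41 on 3L and 43 on 3R, so a tip at 0 in that list was 1 of many such windows.

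**Figure D2:**
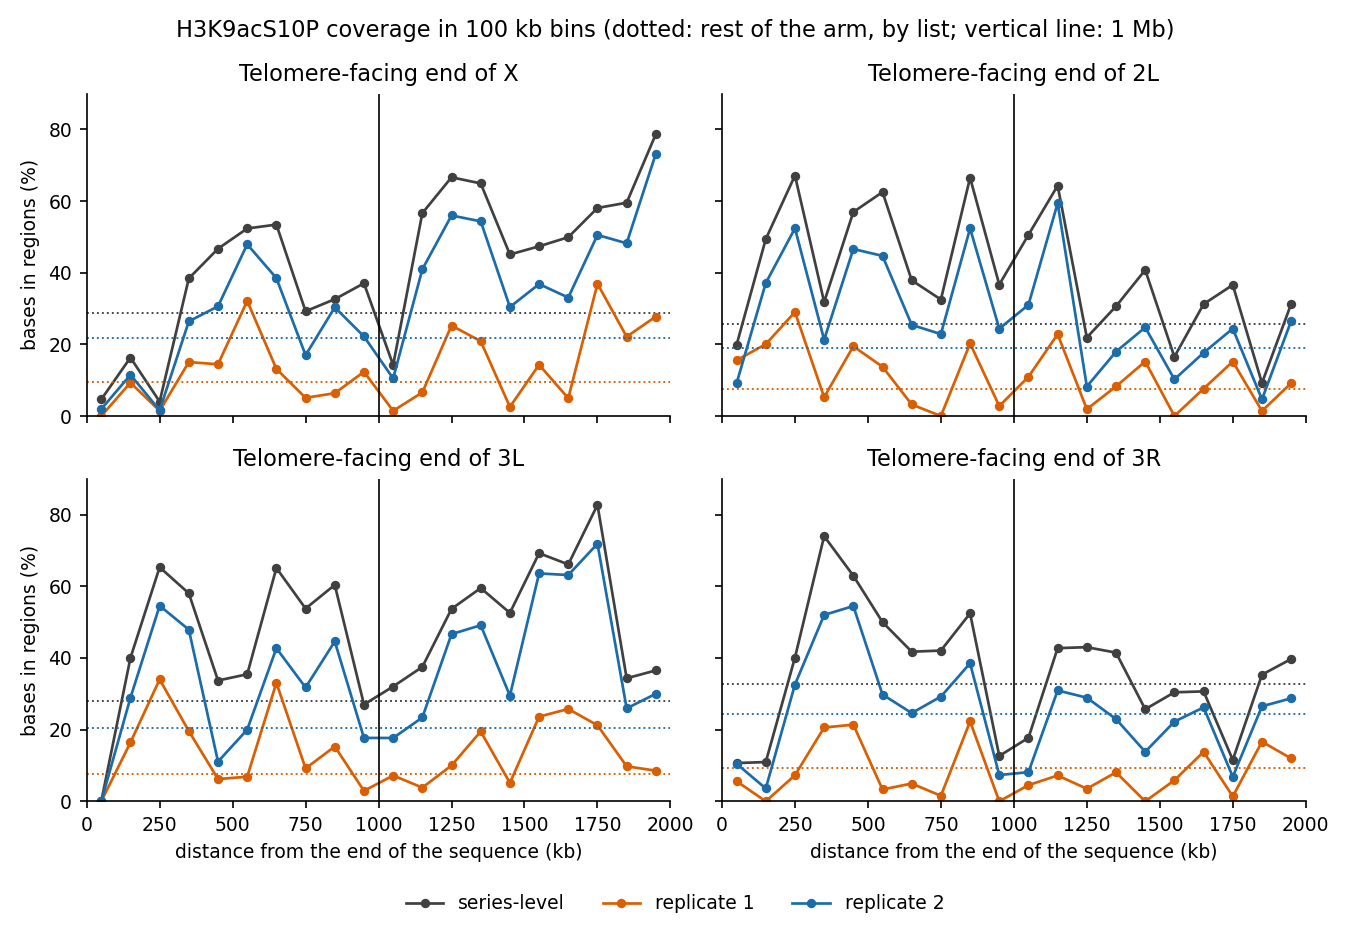
Lines give the percentage of bases in regions in 100 kb bins from the end of the sequence to 2 Mb inwards, for the series-level list and both replicates; dotted lines are the rest of the arm in each list and the vertical line marks 1 Mb. Coverage starts between 0% on 3L and 19.8% on 2L in the series-level list, and rises above 50% within 600 kb at all 4 ends.

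Distances to the first listed region differed between ends and between lists. A stretch without a listed region is not shown to lack the mark. On X the first series-level region was X 6611 to 7953, 6.61 kb from the end, with a score of 0.499 and no overlap in either replicate list. The first region of replicate 2 on X began 11.4 kb from the end and that of replicate 1 only at 138 kb. On 2L the first series-level region was 2L 7506 to 8506, 7.51 kb in, which replicate 2 also held. The first region of replicate 1 on 2L began at 14.5 kb. On 3R the 3 lists began at nearly the same place, 10.6 kb, 10.6 kb and 10.7 kb from the end. The region there, 3R 27891909 to 27894472, was matched by 1 region in each replicate.

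On 3L the first region of every list lay over 100 kb from the end. The first series-level region was 3L 109003 to 110089, and it overlapped neither replicate list. The first region of replicate 2 lay 123 kb from the end and that of replicate 1 lay 131 kb from the end. The empty stretch of 109 kb at the tip of 3L ranked 4 in length among the 3001 stretches without a region on the whole arm.

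Long empty stretches also lay just inside the first few regions on X and 3R. On X no region of any list was found from X 30494 to 138362, a stretch of 108 kb that ranked 7 of 2326 on the arm. A second stretch, X 173918 to 240160, spanned 66.2 kb and was touched by 98 bp of 1 replicate 1 region. On 3R the stretch 27789128 to 27864070, of 74.9 kb, began 41.0 kb from the end, ranked 3 of 3876 on the arm and was touched by 140 bp of 1 replicate 2 region. On 2L the longest empty stretch was 20.2 kb, 2L 38033 to 58200, and ranked only 202 of 2544. Stretches over 20 kb numbered 8 on X, 1 on 2L, 2 on 3L and 6 on 3R, and together took up 340 kb, 20.2 kb, 130.1 kb and 190 kb. Such lengths were common on whole arms. Besides the rank of 202 on 2L, a stretch of 21.1 kb at the end of 3L ranked 181 of 3001. One of 23.8 kb at the end of 3R ranked 118 of 3876. No number for the rest of the arms is given here, so these counts are not shown to be a trait of the ends. Over all stretches the members stood closer than regions in the rest of each arm, with a median spacing of 2021.5, 1691, 1434 and 1576 bp on X, 2L, 3L and 3R, against 2327.5, 2584, 2235 and 2064.5 bp.

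**Figure D3:**
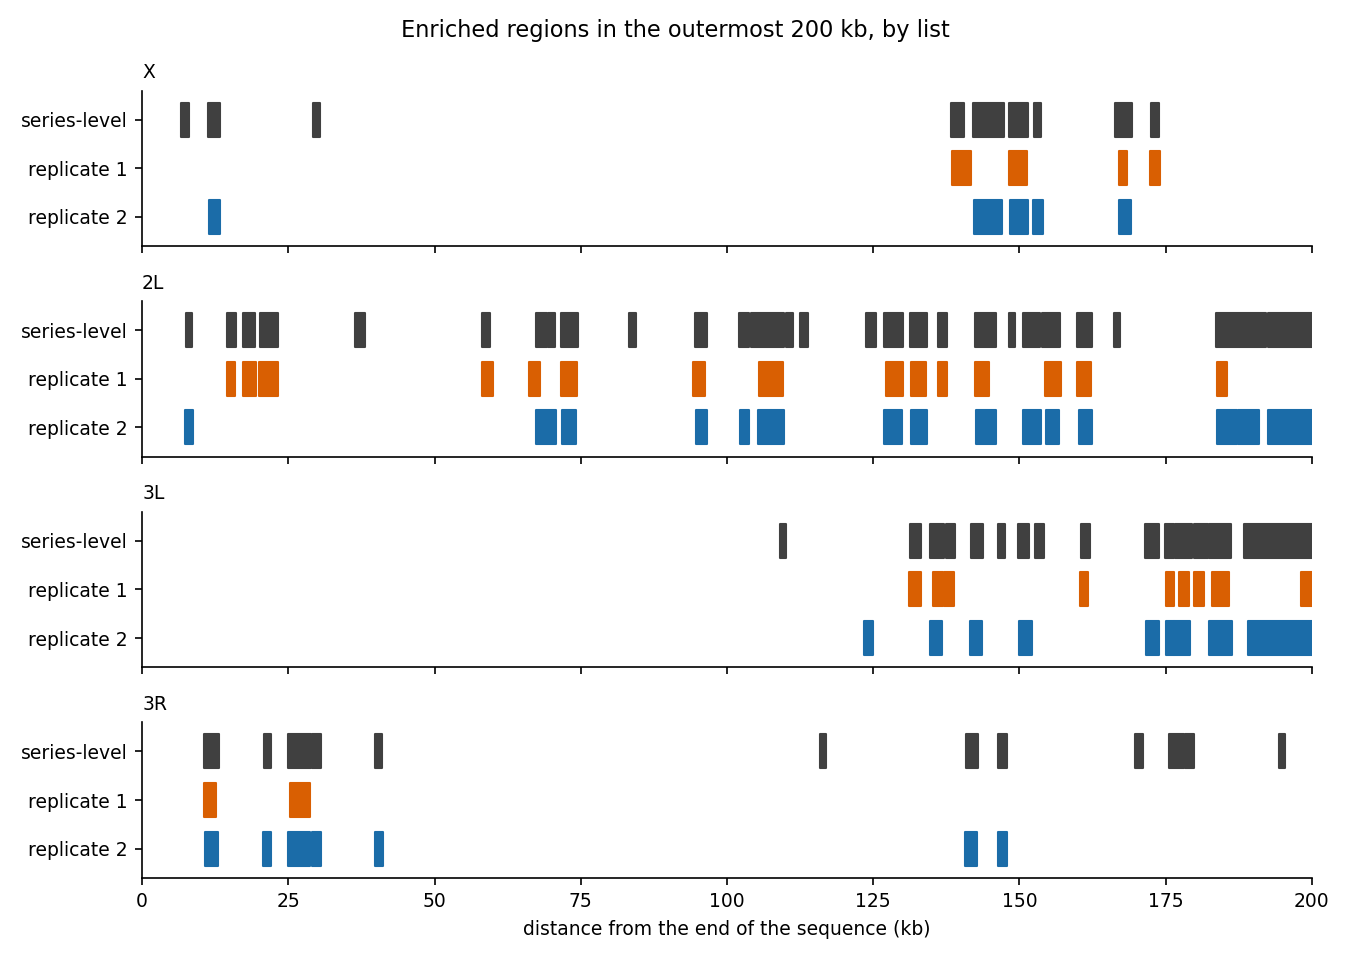
Bars mark every enriched region in the outermost 200 kb of each end by distance from the end of the sequence, with a row for each list. The series-level row is empty for 109 kb on 3L, from 30.5 to 138 kb on X and from 41.0 to 116 kb on 3R. On 2L its longest empty stretch is shorter, 20.2 kb, from 38.0 to 58.2 kb.

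The tip of 2L held a cluster seen by replicate 1 alone. 3 neighbouring series-level regions, 2L 14454 to 16011, 2L 17317 to 19324 and 2L 20114 to 23215, each overlapped 1 region of replicate 1 and none of replicate 2. Their scores were 0.245, 0.429 and 0.363, below the list's median of 0.474. The matching regions of replicate 1 scored 0.513, 0.752 and 0.723, where that list's median was 0.735. Further in, 2L 71692 to 74536 was found by both replicates, with a series-level score of 0.848 and scores of 0.943 in replicate 1 and 1.00 in replicate 2. These regions of 2L were chosen after their values were seen.

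The tip of 3R held the strongest region of any outermost 100 kb. 3R 27876176 to 27880182 lay 24.9 kb from the end, spanned 4.01 kb and scored 1.14, which ranked 63 among all regions of 3R. Replicate 1 held 1 region there with a score of 1.03 and replicate 2 held 1 with a score of 1.29. It overlapped those regions over 87.7% and 94.1% of its length. It was the second highest score in the whole end of 3R and stood before the 74.9 kb empty stretch.

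From 200 kb inwards coverage came in peaks and dips that differed between ends. On X the shares from 300 to 700 kb were 38.4%, 46.7%, 52.3% and 53.4% per 100 kb in the series-level list, after only 4.02% from 200 to 300 kb. On 2L the highest bins were 200 to 300 kb at 67.1% and 800 to 900 kb at 66.5%. On 3L they were 200 to 300 kb at 65.3% and 600 to 700 kb at 65.1%. On 3R coverage reached 74.0% from 300 to 400 kb and fell to 12.7% from 900 to 1000 kb, where replicate 1 held no region.

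Coverage by bin rose and fell in a similar order in the replicates. The most covered bin was the same in both on X, 2L and 3L. On 3R it was 800 to 900 kb in replicate 1, at 22.3%, and 400 to 500 kb in replicate 2, at 54.5%. Spearman's rho between replicate 1 and replicate 2 coverage was 0.81 over the 40 bins, and within single ends of 10 bins it was 0.82 on X, 0.70 on 2L, 0.90 on 3L and 0.85 on 3R. These are descriptions over neighbouring bins of the same 2 libraries. Distance from the end and series-level coverage had a rho of 0.21 over the same 40 bins. By end it was 0.45 on X, 0.14 on 2L, 0.10 on 3L and 0.32 on 3R. Pooled over the ends, series-level coverage rose from 8.79% at the tip through 29.2% and 44.1% to 50.6% from 300 to 400 kb. It was 49.5% from 600 to 700 kb, 39.4% from 700 to 800 kb, 53.0% from 800 to 900 kb and 28.3% beyond. There was thus no steady slope over the whole 1 Mb. On 2L, 3L and 3R the tip was the least covered series-level bin of its end, on 3R by a small margin. On 3R the series-level share was 10.96% from 100 to 200 kb, near the 10.68% of the tip. Replicate 1 covered 0% of that bin and replicate 2 covered 3.59%, both below their shares at the tip. On X the series-level share was 4.02% from 200 to 300 kb and 4.64% at the tip.

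Members were about as wide as regions elsewhere. The median width over the 4 ends was 1818 bp, with a range from 1001 to 24200 bp, against a median of 1751 bp in the rest of the arms. By end the median was 1802.5 bp on X, 1931 bp on 2L, 1877 bp on 3L and 1634.5 bp on 3R, against 1820, 1747.5, 1722 and 1745 bp in the rest of each arm. In the replicate lists the ends had medians of 2039.5 bp and 2073.5 bp, against 2071 and 2009.5 bp. Thus the ends of 2L and 3L were slightly wider and that of 3R slightly narrower in the series-level list. The replicates gave the same order of end and rest on 2L alone, where the end was wider in both. On 3L the end and rest had medians of 1822 and 2029 bp in replicate 1 and of 2037.5 and 1963.5 bp in replicate 2. On 3R they were 1999 and 2090 bp and then 2179.5 and 2008 bp, and on X 2256.5 and 2104 bp and then 2100 and 2114 bp.

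Wide members were few. Over 10 kb there were 8 of 603 members, or 1.33%, where 1.22% of the whole series-level list were that wide and 1.31% of the rest of the 4 arms. Over 5 kb there were 71 members, or 11.8%, against 8.40% in the rest of the arms. The ends held 150.75 series-level regions per Mb and the rest of the arms held 119, while replicate 1 had 48 and 36.0 and replicate 2 had 99.5 and 79.1. Over the 4 ends together the higher coverage thus went with more regions and a slightly larger share of broad ones, at nearly the same median width. By end the series-level numbers per Mb were 106 against 104 on X and 181 against 107 on 2L. They were 158 against 121 on 3L and 158 against 138 on 3R. The end had fewer than the rest on X in replicate 2, 67 against 68.5, and on 3R in replicate 1, 35 against 39.6. Each other end had more in each replicate list, as did X in replicate 1 and 3R in replicate 2. Width and distance had a Spearman rho of -0.08 over the 603 members, and -0.22 on 3R alone.

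Scores, the authors' own value for each region, were similar in the ends and elsewhere. The median in the series-level list was 0.468 over the ends and 0.476 over the rest of the arms. Within replicate 1 it was 0.703 and 0.743, and within replicate 2 it was 0.678 and 0.675. Among the ends X had the highest median, 0.524, against 0.455 on 2L, 0.457 on 3L and 0.458 on 3R, and the rest of X also had the highest of the rests, 0.548. Wider members had higher scores, with a rho of 0.48 over 603 regions and from 0.34 on 3R to 0.65 on 3L.

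**Figure D4:**
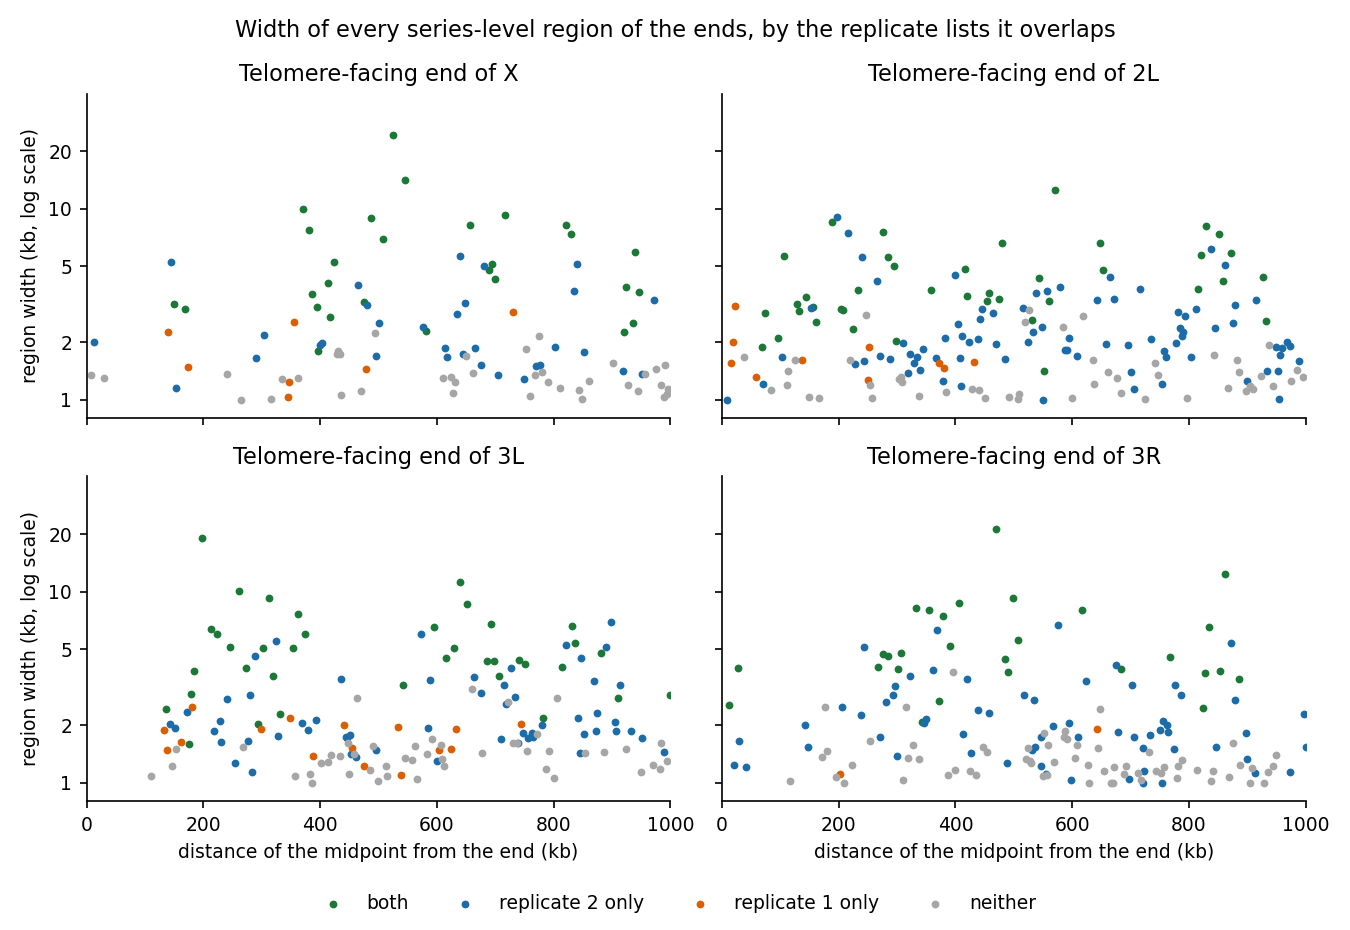
Each point is 1 of the 603 members, at the distance of its midpoint from the end of the sequence and at its width on a log scale, coloured by the replicate lists it overlaps. Members found by both replicates are mostly the wide ones (median 4322 bp), members found by neither are narrow (median 1282 bp), and those found by replicate 1 alone lie mostly within 500 kb of the end.

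The widest member was on X. X 513269 to 537468 spanned 24.2 kb with a score of 1.12, and ranked 5 in width on the arm. It was covered over 15.7 kb by 5 regions of replicate 1 and over 22.4 kb by 2 regions of replicate 2. The next member, X 537808 to 551927, began a short gap further in and spanned 14.1 kb, with 4 regions of replicate 1 and 2 of replicate 2. The pair lies in the bin from 500 to 600 kb, the most covered of the end of X in both replicate lists, at 32.1% in replicate 1 and 47.9% in replicate 2. The third widest, X 365381 to 375353, spanned 9.97 kb, of which replicate 2 covered 94.0% and replicate 1 covered 39.0%.

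On 3R a member was the widest region of its entire arm. 3R 27425703 to 27446866 spanned 21.2 kb, lay 458 kb from the end and scored 0.730. Replicate 1 covered 60.6% of it with 4 regions and replicate 2 covered 98.1% with 4 regions. 3R 27402665 to 27411900 lay close by and spanned 9.24 kb, of which replicate 1 covered 27.0%. 3R 27037455 to 27049762 was both the second widest at 12.3 kb and the highest-scoring member of 3R at 1.22, with 1 region in each replicate.

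On 3L the member 188370 to 207411 spanned 19.0 kb and ranked 3 in width on the arm. It lay 188 kb from the end and was covered to 42.9% by replicate 1 and 88.2% by replicate 2. Next were 3L 634309 to 645540, of 11.2 kb, and 3L 256079 to 266112, of 10.0 kb. Replicate 1 covered 99.3% of the former, more than the 66.9% of replicate 2, and both replicates covered over 92% of the latter.

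On 2L wide members were shorter than at the other ends. 2L 563525 to 576082 spanned 12.6 kb and ranked 14 on its arm, with 99.9% covered by replicate 2 and 41.4% by replicate 1. The next, 2L 192540 to 201539, spanned 9.00 kb and overlapped replicate 2 only, although it ranked 44 in width on the arm. Its neighbour 2L 183664 to 192205, of 8.54 kb, was covered to 83.3% by replicate 2 and to 19.6% by replicate 1. High coverage of the end of 2L therefore went with many regions, 181 in 1 Mb, and not with very wide ones.

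The 3 highest-scoring members of each end were held by both replicates, but a high score did not always go with replicate support. X 927294 to 928493, singled out after its values were seen, scored 1.23 and overlapped neither replicate list. X 698117 to 702397 led, with a score of 1.61 that ranked 5 on X, and scored 1.65 in replicate 1 and 1.92 in replicate 2. X 652833 to 661037 followed with 1.52 and X 825655 to 833003 with 1.42. On 2L the region 418496 to 421983 scored 1.52 and ranked 13 on its arm, with 1.57 in replicate 1 and 1.98 in replicate 2. The other high-scoring members of 2L were 868510 to 874379 at 1.42 and 451773 to 455078 at 1.07.

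On 3L the region 221126 to 227100 scored 1.45 and ranked 13 on its arm, with 1.46 in replicate 1 and 1.65 in replicate 2. Below it were 3L 748638 to 752805 at 1.23 and 3L 827466 to 834093 at 1.16. On 3R the third after the members named above was 27418346 to 27422802 at 1.07, which lay between 2 of the widest members of that end. Each of these 12 highest-scoring members, 3 for each end, was matched by a single region in both replicates. Scores over 1 were as frequent in the ends as elsewhere, 23 of 603 members or 3.81%, against 3.74% in the rest of the arms.

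Replicate support of the members was close to that of the whole list in 3 of 4 classes. Both replicate lists overlapped 133 of 603 members, or 22.1% (95% Wilson interval 18.9 to 25.5%), where 22.5% of all series-level regions did. Replicate 2 alone overlapped 234 members, 38.8% against 40.0% of all regions, and neither list overlapped 201 members, 33.3% against 34.1%. Those shares are near the background. Within width classes the ends had fewer members in both lists, 12.2% against 19.0% in the rest of the arms from 1500 to under 3000 bp and 64.8% against 71.1% from 3000 bp upwards. At an overlap of at least 50% the shares in both were 14.4% and 17.0%. The end of 3R had fewer members in both lists, 17.7% against 22.8% in the rest of 3R, and more in neither, 41.1% against 34.6%, while the end of 2L had fewer in neither, 27.1% against 33.7%. Members in both lists held 43.8% of the members' bases, near the 43.9% in the rest of the 4 arms and the 43.1% in the whole list.

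The class seen by replicate 1 alone was larger than the background. It held 35 members, or 5.80% (95% Wilson interval 4.20 to 7.97%), where 3.43% of all series-level regions and 3.13% of the rest of the 4 arms fell in it. By end it was 7 of 106 on X, 10 of 181 on 2L, 16 of 158 on 3L and 2 of 158 on 3R. On 3L this is 10.1% against 3.09% in the rest of the arm, and on 3R it is 1.27% against 2.39%, so the end of 3R went the other way. The difference was also present among members from 1500 to under 3000 bp wide, with 8.40% in the ends and 4.95% in the rest, and among those under 1500 bp, with 6.80% and 2.71%. From 3000 bp upwards the class held 1 member, with shares of 0.629% and 0.576%. When an overlap of at least 50% of the region was asked for, the shares were 5.31% and 3.14%. Neighbouring regions are not independent and the intervals cover counting error only.

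These members lay near the outer part of the ends. With bands chosen after the values were seen, 27 of 263 members within 500 kb of the end overlapped replicate 1 alone, or 10.3% (95% Wilson interval 7.15 to 14.5%). From 500 to 1000 kb it was 8 of 340, or 2.35%, from 1 to 2 Mb 18 of 631 regions, or 2.85%, and beyond 2 Mb 331 of 10516, or 3.15%. Within 500 kb the share was 14.6% on X, 11.2% on 2L and 14.3% on 3L, and 1.59% on 3R. So 3 of the 4 ends had a high share within 500 kb and 3R did not. On 3L the share was still 6 of 88, or 6.82%, from 500 to 1000 kb, against 3.27% beyond 2 Mb on that arm. From 500 to 1000 kb it was 1.54% on X, 0% on 2L and 1.05% on 3R. No member beyond 800 kb was in this class. The 35 members concerned were narrow and low in score, with medians of 1575 bp and 0.385.

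Within 500 kb of 3 of the 4 ends the balance of covered bases also leaned towards replicate 1. Over the whole of the 4 arms the bases covered by replicate 1 were 0.394 of those covered by replicate 2. Over the 4 ends the ratio was 0.981 in the outermost 100 kb, 0.564 from 100 to 200 kb, 0.508 from 200 to 300 kb and 0.410 from 300 to 400 kb. The value for the outermost 100 kb rests on the tip of 2L, and without 2L it was 0.451. Without 2L the next 3 bins had 0.585, 0.482 and 0.437, and the bin from 600 to 700 kb had 0.484. A steady fall with distance was thus not seen without 2L. Within 500 kb of the end the ratio was 0.559 on X, 0.537 on 2L, 0.535 on 3L and 0.358 on 3R, where the whole arms had 0.440, 0.393, 0.380 and 0.373. Replicate 1 was thus relatively stronger than in the whole arm near the ends of X, 2L and 3L, and not near that of 3R. The lists hold no read depth, and its part in this pattern was not tested.

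**Figure D5:**
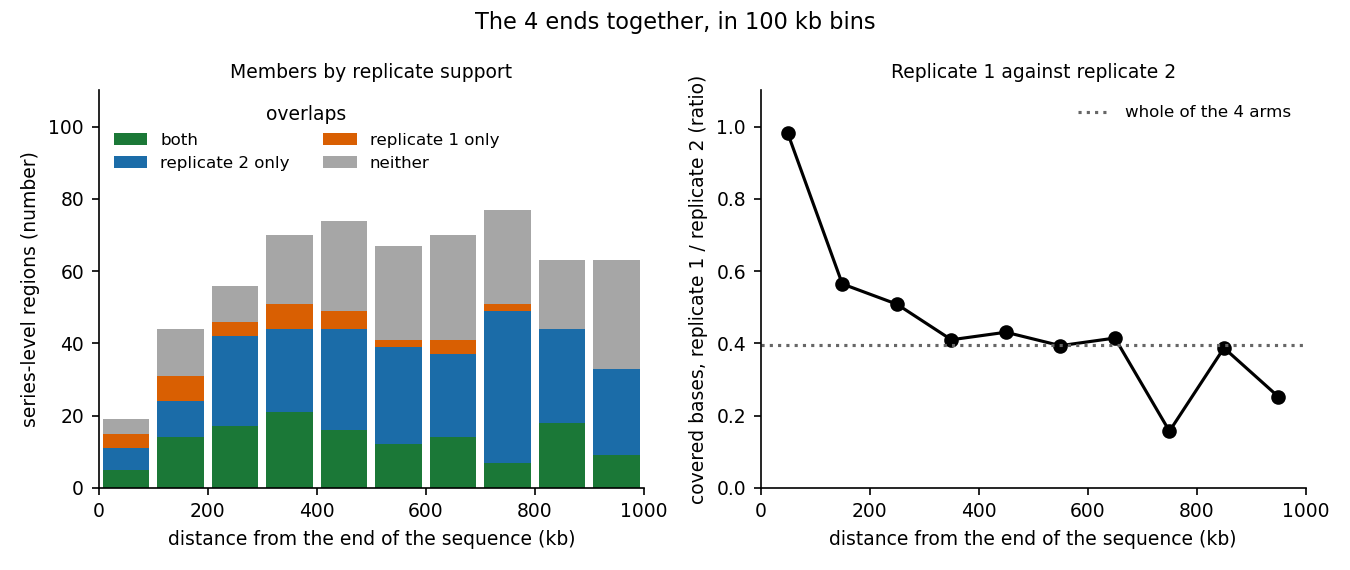
The left panel counts members in 100 kb bins over the 4 ends together, stacked by the replicate lists they overlap; the right panel gives the ratio of covered bases in replicate 1 to replicate 2, with the ratio over the whole arms dotted. Members found by replicate 1 alone (orange) number 27 within 500 kb and 8 beyond, and the ratio falls from 0.981 at the tip to 0.410 at 300 to 400 kb. The tip value rests on 2L, and without 2L the ratio is 0.451 at the tip and 0.585 at 100 to 200 kb (not drawn).

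Seen from the replicate lists, the ends gave fewer partners for replicate 1. Of its 192 regions with a midpoint in the ends, 157 overlapped replicate 2, or 81.8% (95% Wilson interval 75.7 to 86.6%), where 87.1% of its whole list did and 88.3% of the rest of the 4 arms. By end the share was 84.1% on X, 83.3% on 2L, 72.9% on 3L and 91.4% on 3R. The low share was thus mainly that of 3L, where 16 of 59 regions had no partner. Of the 398 regions of replicate 2 in the ends, 145 overlapped replicate 1, or 36.4%, where 36.0% of the whole list did. The bases shared by both replicates were 91.2 kb on X, 102 kb on 2L, 101 kb on 3L and 74.4 kb on 3R. That is 83.4%, 78.8%, 70.4% and 85.5% of the bases of replicate 1, and 40.0%, 30.3%, 33.8% and 26.3% of those of replicate 2. Shares of bases for the rest of the arms are not given here, so these values are not shown to be particular to the ends.

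The limit of 1 Mb ran through 1 region on 3L and 1 on 3R, both members by their midpoints. Just inside it lay X 994998 to 996138 and just outside X 1020027 to 1021078, both in neither replicate list. On 2L the nearest regions were 994597 to 995917 inside and 1006951 to 1008445 outside. On 3L they were 997998 to 1000865 and 1002539 to 1004679, of which the inner spanned the limit and was held by both replicates. On 3R they were 26904674 to 26906215, which also spanned the limit, and 26893311 to 26894512. All 8 were under 3 kb wide and scored from 0.371 to 0.538.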

How the data were processed

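ChIP against H3K9acS10P was sequenced from embryos in 2 ChIP samples with 2 inputs. Per the submitters' processing notes, the aligner was Bowtie 0.12.7. The 3 deposited lists give the first base, last base and a score for each enriched region on FlyBase r5, per the file headers. The sources used here do not name the region caller, its threshold or the way replicates were combined. The deposited score has no stated scale or log base and was used only within 1 list. Read depth is unknown.

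Lists were analysed with pandas 2.3.3, NumPy 2.4.6 and SciPy 1.17.1 under Python 3.11.15, and drawn with Matplotlib 3.10.9. Members were assigned by midpoint. Coverage is the share of bases in regions. Overlap means at least 1 bp. Windows and bins were counted inwards from the end of the sequence. Interval functions were tested on simulated data. Regions and windows are not replicates of embryos, and none was resampled. Named regions are, for each end, the one nearest the end, the 3 widest and the 3 highest-scoring, the longest empty stretches, and those next to 1 Mb. Alternatives were other end lengths, bin sizes, overlaps and scores, merged regions, and each replicate's list alone. Distance bands and leaving out an end were added after the data were seen. Members, measures and this rule were chosen with earlier results of these data known.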

Additional observations from a re-analysis of the deposited data

How the results depend on the processing

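Of the values recomputed under other settings, 31 moved by less than the spread between replicates or the counting interval, 38 moved by more and 3 changed sign; the cause was not tested. The series-level list could not be remade without a replicate, so the other replicate's own list stood in; these gave 11.7 to 28.7% for coverage of the 4 ends, 3.25 to 7.11 points for end minus rest, 48 to 99.5 regions per Mb, a median width of 2039.5 to 2073.5 bp, and -25.8 to -7.16 points for the outermost 100 kb against the remaining 900 kb. Regions at or above the median score gave 25.7%, 6.55 points, 71 regions per Mb and 2856.5 bp, and 42.3% of these members overlapped both replicates; fewer regions enter by construction. An overlap of at least 50% left 14.4% in both. Merging regions 500 bp or less apart gave a median width of 2008 bp. Ends of 0.5 Mb gave 7.23 points. Leaving out the end of X gave 14.2 points and that of 2L 8.37, both added after the data were seen. The changes of sign were X with 0.5 Mb (-6.94 points), 3R over the replicate lists (-0.471 to 3.89 points) and the tip of 2L against its remaining 900 kb over the replicate lists (-27.2 to 2.91 points). No paired analysis was possible because no result comes from a test; the differences between end and rest were taken within each replicate's list. Depth is unknown, so a bin without a region is not shown to lack the mark.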

Other observations

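The stretch from 1 to 2 Mb was covered about as densely as the ends. Series-level regions covered 42.9% of it over the 4 arms, against 40.3% in the outermost 1 Mb and 28.4% beyond 2 Mb. In replicate 1 the share was 11.6% and in replicate 2 it was 32.4%. By arm the series-level share was 54.1% on X, 33.3% on 2L, 52.4% on 3L and 31.8% on 3R, so on X and 3L the stretch exceeded the end itself and on 2L and 3R it did not. In replicate 1 the order on 3L was the other way, with 13.5% from 1 to 2 Mb and 14.4% in the end.

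Some regions of the replicate lists in the ends had no counterpart in the series-level list. They were 2 of 192 in replicate 1 and 14 of 398 in replicate 2. The whole lists had 85 of 4619 and 322 of 10280, so this was a trait of the lists and not of the ends.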
